A study of Homo sapiens with 6 samples.

Results

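Histone lysine methyltransferases and demethylases were examined in MDA-MB-231 cells, an established line of triple-negative breast cancer cells, from the RNA-seq part of a study of RBMS3, an RNA binding protein. The genes were chosen by symbol: the KDM, KMT, SETD, SETDB, SUV39H, EHMT, EZH, NSD, SMYD and PRDM families with DOT1L, ASH1L, JARID2 and JMJD6, without copies on the Y chromosome. The rule found 61 genes among the 15917 genes of the authors' deposited table. Of these, 26 were counted as histone lysine methyltransferases and 16 as histone lysine demethylases. The counts include KMT2E and KDM8, whose activity is in doubt. Another 8 encode PRDM proteins. The remaining 11 are JARID2, JMJD6 and 9 SETD and SMYD proteins, which were placed on neither side. Genes of the same families without a row, namely KDM4D, PRDM1, PRDM7, PRDM12, PRDM13, PRDM14, PRDM16 and SMYD1, were not analysed here.

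The series has 6 libraries of total RNA, which was depleted of ribosomal sequences. Of these, 2 came from cells with the control hairpin shCTRL (genotype WT), 2 from cells with the hairpin shRBMS3-B3 (RBMS3 KD1) and 2 from cells with shRBMS3-C3 (RBMS3 KD2). Per the study's methods all cells carried a luciferase label, a lentiviral hairpin vector and resistance to puromycin, with which they were selected, so that the control cells differ from unmodified MDA-MB-231 cells as well. The values used are 1 mean normalized count per gene, the authors' mean, and which of the libraries entered it is not given in the sources used here. A mean carries no spread and no depth, so that no value below has an error or a replicate number. No difference between knockdown and control cells is reported, the targeted gene was not checked, and small differences between genes cannot be set against replicate error.

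Lysine methylation of histone tails marks chromatin according to the residue: methylated H3K4 lies at promoters and enhancers, H3K36 and H3K79 over transcribed genes, and H3K9, H3K27 and H4K20 over silent or compacted chromatin. Most of the writers carry a SET domain, whereas DOT1L has a different fold. The erasers are either amine oxidases that use FAD or JmjC proteins that use iron and 2-oxoglutarate. EZH2, NSD2, KDM1A and the KMT2 family are well known in cancer biology, and EZH2 was described early as a marker of aggressive breast cancer.

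The label of the cells was set against marker genes. Levels are given as mean normalized count per kilobase of the representative transcript. Percentiles are the share of the 12408 protein-coding genes of the table at or below that level. Of 6 listed markers of the line, SPARC has no row. The other 5 all lay above the median, and their median percentile was 98.9. They were VIM, the intermediate filament of mesenchymal cells (32189 per kilobase), AXL (7502), CAV1 (2014), CD44 (1850) and KRT18 (8980). KRT18 is a keratin of simple epithelia that the list holds as a gene of this line, so that 1 epithelial gene was among the highest. Of the 8 listed markers of luminal, other epithelial, basal or blood cells, 3 have a row, and none of these lay above the median. GATA3, a luminal transcription factor, was at 55.6, EPCAM at 69.3 and E-cadherin, CDH1, at 6.57.

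The transcript levels of the 61 genes were intermediate. Their mean normalized counts ran from 33.7 to 11444 with a median of 939, against a median of 526 over protein-coding genes. The gap was smaller once length was taken into account. The median representative transcript of these genes was 5810 bases long with 21 exons, against 3439 bases and 9 exons over protein-coding genes, and 45 of the 61 transcripts were longer than the protein-coding median. Per kilobase the median was 173 against 152, and 34 of 61 genes (55.7%) lay above the protein-coding median, whereas 43 (70.5%) did so before division by length and 22, fewer than not, per kilobase of coding sequence. NSD2 and KDM1A (3.28% of the 61) lay above the 90th percentile per kilobase and no other gene of the family did, against 8 genes undivided and 1 with the longest transcript or with ranks among all genes of the table. EZH2 came next, at the 89.2 percentile, and the family's own upper quartile was 370 per kilobase, against 398 over protein-coding genes. Spearman's rho between mean normalized count and transcript length was 0.38 over the 61 genes and 0.085 over the 12408 protein-coding genes. Both are descriptions across genes, which are not independent replicates and share libraries and depth.

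**Figure D1:**
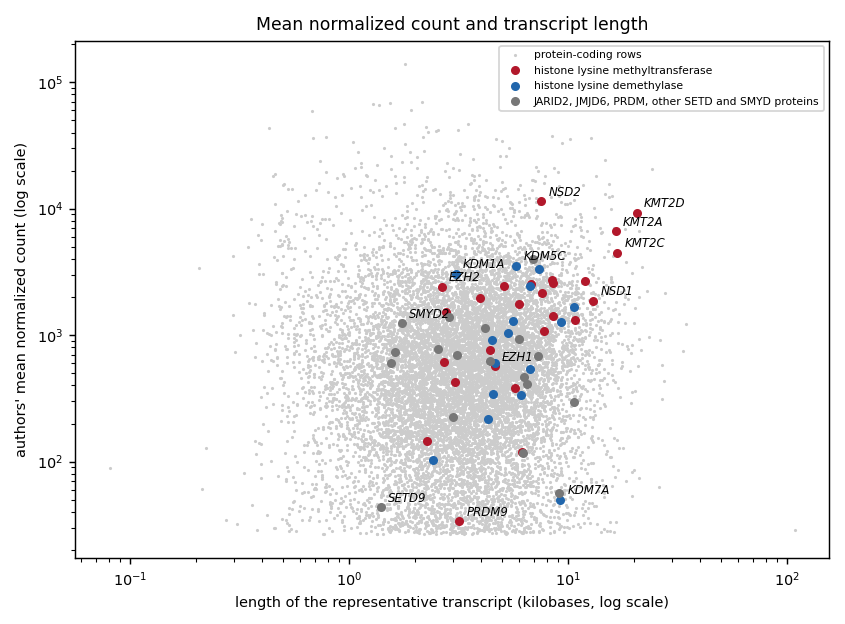
Mean normalized count (the authors' mean) against length of the representative transcript in kilobases, both on log axes, for 12407 protein-coding genes (small grey points) and 60 of the 61 genes of the family (large points, coloured by side). NSD2 is the highest and PRDM9 the lowest of the family, and KMT2D, KMT2A and KMT2C, with the longest transcripts, are the next highest before division by length.

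The length that the count was divided by decided the place of several genes. KMT2D ranked 2 of the 61 by count (9311) and 12 per kilobase (451), since its transcript has 20635 bases. KMT2C ranked 4 by count (4501) and lay at 267 per kilobase. SMYD2, by contrast, ranked 27 by count (1247) and 4 per kilobase (715), with a transcript of 1745 bases. With 3 lengths tried, those of the representative transcript, of the longest transcript and of the coding sequence, 21 genes lay above the protein-coding median under each and 22 at or below it under each. For the other 18 the side depended on the length. NSD2 was first under all 3 lengths, and KDM7A, PRDM6 and PRDM9 were the lowest 3 under all of them.

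**Figure D2:**
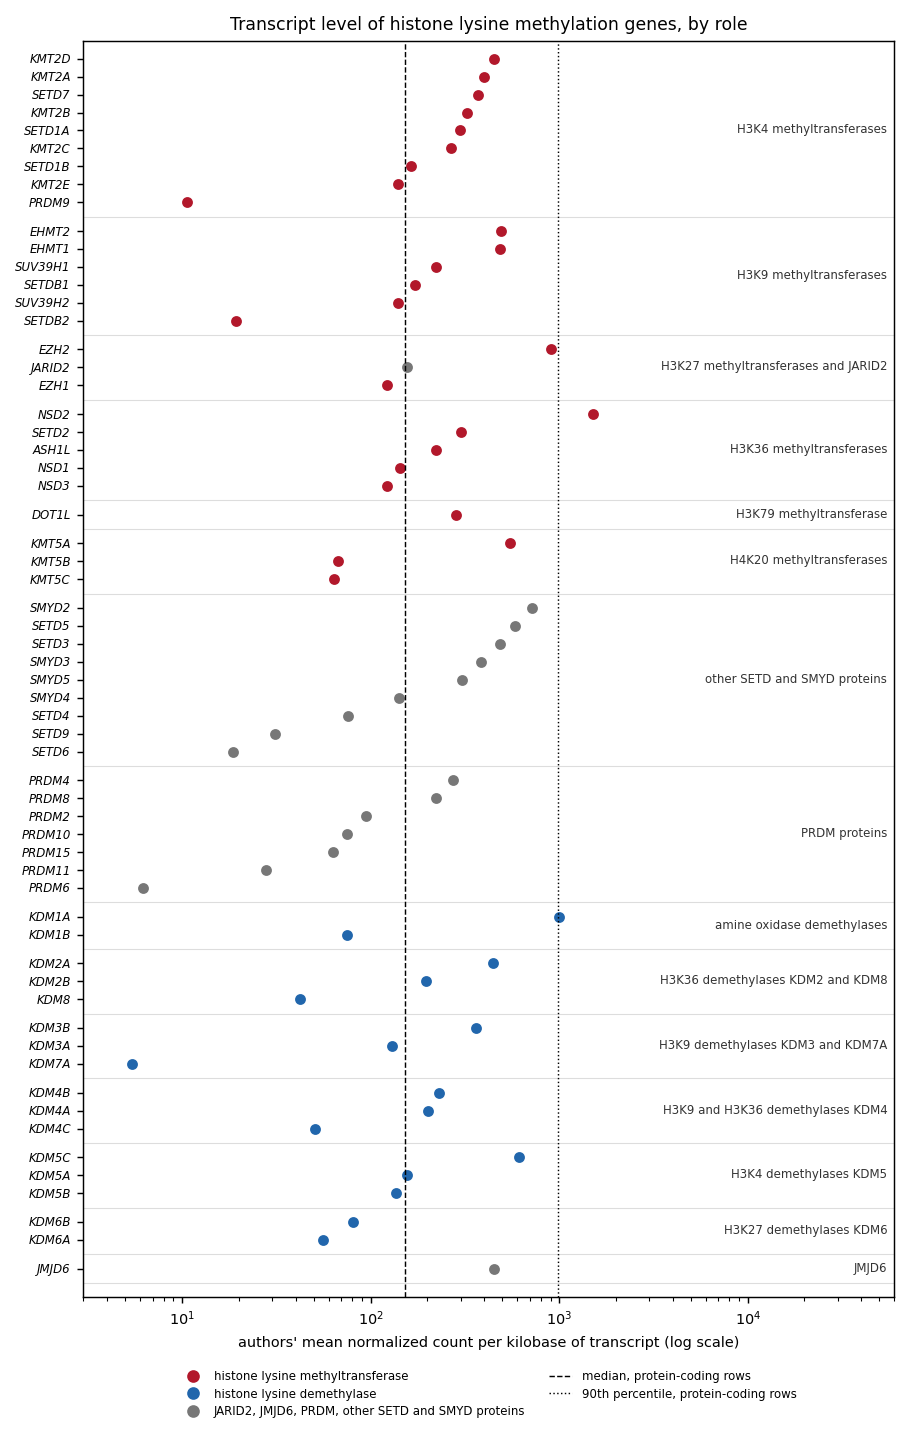
Level of 60 of the 61 genes, as the authors' mean normalized count per kilobase of the representative transcript (log axis), grouped by the residue or family and ordered within each group. The dashed line is the median of protein-coding genes (152) and the dotted line their 90th percentile (984), which NSD2 and KDM1A pass.

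Among methyltransferases of H3K4 the levels per kilobase of the representative transcript were even apart from a single low gene. KMT2D and KMT2C, which monomethylate H3K4 at enhancers, were at 451 and 267 per kilobase. KMT2A and KMT2B, which bind menin and act at promoters, were at 399 and 324. SETD1A and SETD1B, the catalytic subunits of the complexes that trimethylate H3K4 at most active promoters, were at 296 and 164. These 6 genes thus lay within a range of less than 3-fold, all above the protein-coding median. Per kilobase of coding sequence, KMT2B (338), SETD1A (346), KMT2C (305) and SETD1B (238) fell under the median of 363. SETD7, a monomethyltransferase with many substrates other than histones, was at 370. It lay at 2285 per kilobase of coding sequence, next after NSD2 (2793) among the 61. KMT2E, whose SET domain is thought to lack activity, was at 140, just under the median. PRDM9, which marks the sites of meiotic recombination in germ cells, was the lowest of the 61 by count (33.7) and at 10.6 per kilobase.

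H3K9 is methylated by enzymes of euchromatin and of constitutive heterochromatin, and the former were higher. EHMT2 and EHMT1 form a heterodimer, known as G9a and GLP, that mono- and dimethylates H3K9, and their levels were nearly equal at 490 and 484 per kilobase (ratio 1.01). The order of this pair turned with the length, with a ratio of 0.79 undivided and 0.848 per kilobase of coding sequence. SUV39H1 and SUV39H2, which trimethylate H3K9 at pericentromeric repeats, were at 222 and 140. SETDB1, which silences retroelements, was at 173 and exceeded its paralog SETDB2 (19.3) by 8.94-fold. That ratio was 3.49 per kilobase of coding sequence, since the 3′UTR of SETDB2 has 3154 bases and that of SETDB1 has 373.

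Of the alternative catalytic subunits of Polycomb repressive complex 2 (PRC2), which methylates H3K27, EZH2 was far above EZH1. EZH2, the subunit of dividing cells, was at 909 per kilobase, at rank 3 of the 61. EZH1, the subunit that prevails in resting cells, was at 122. The ratio of 7.44 rests on representative transcripts of 2654 bases for EZH2 and 4633 for EZH1, and it fell to between 4.24 and 4.39 with the other lengths and without division. JARID2, a JmjC protein without demethylase activity that recruits PRC2, was at 156. EZH2 thus held 76.5% of the summed level of the 3 genes.

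NSD2 had the highest level of all 61 genes, with a mean normalized count of 11444 and 1514 per kilobase, at the 93.6 percentile. NSD2 dimethylates H3K36 and is the gene activated by the t(4;14) translocation of multiple myeloma. Its paralogs NSD1, mutated in Sotos syndrome, and NSD3 lay at 143 and 123, under the median, so that NSD2 exceeded them 10.6-fold and 12.3-fold. These ratios were 6.12 and 8.66 undivided and 12.1 and 9.12 per kilobase of coding sequence. SETD2, the enzyme that trimethylates H3K36 behind RNA polymerase II, was at 300.0, and ASH1L, a Trithorax protein, at 221. NSD2 held 65.8% of the summed level of the 5 genes. DOT1L, the methyltransferase of H3K79, was at 282.

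KMT5A, which monomethylates H4K20 during mitosis and is needed for the enzymes that follow it, was at 547 per kilobase and held 80.7% of the level of the H4K20 group. KMT5B and KMT5C, which add further methyl groups, were at 67.0 and 63.9, both in the lower part of the table. Undivided, KMT5B exceeded KMT5C by 2.62-fold, against 1.05-fold per kilobase.

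**Figure D3:**
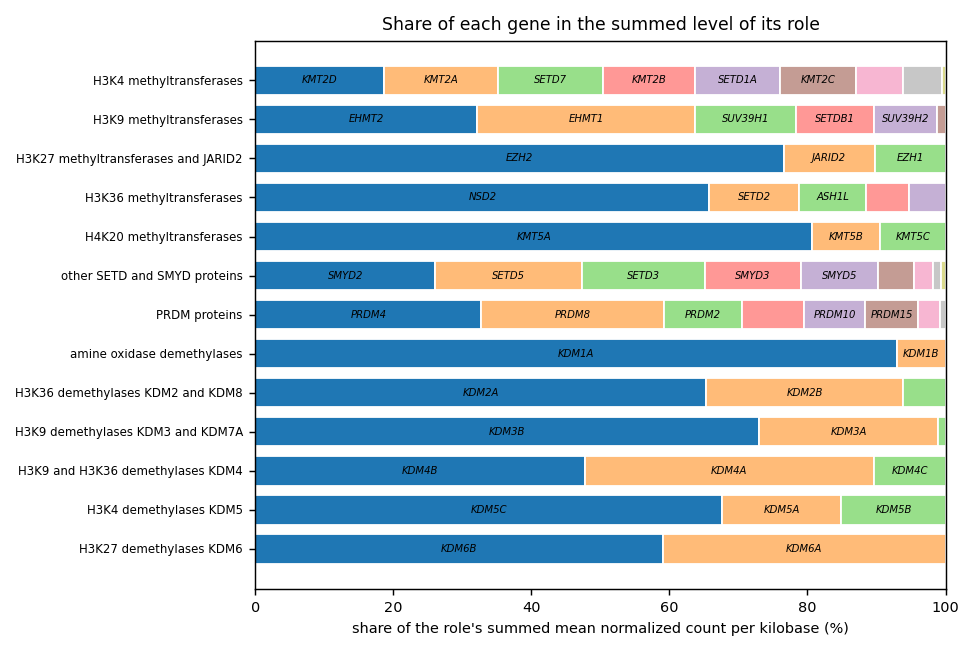
Share of each gene in the summed mean normalized count per kilobase of its group, in percent, for the 13 groups with more than 1 gene; segments run from the highest gene on the left to the lowest on the right, and not all are named. KDM1A (93.0% in a group of 2), KMT5A (80.7% in 3) and EZH2 (76.5% in 3, with JARID2) hold most of their groups. KMT2D, the highest H3K4 methyltransferase, holds 18.6% in a group of 9, and the shares depend on group size.

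The other SETD and SMYD proteins, several of which act on proteins other than histones, spread from 18.5 to 715 per kilobase. SMYD2, which also methylates p53, was the highest of them, but with the longest transcript it lay at 264, under SETD5 (581), SETD3 (488), SMYD3 (322) and SMYD5 (306). SETD5, whose loss causes intellectual disability and whose own activity is disputed, was at 581 and had the highest count of the group (4029), and SETD3, now known as the histidine methyltransferase of actin, at 488. SMYD3, a methyltransferase of the kinase MAP3K2, was at 384, SMYD5 at 306 and SMYD4 at 142. SETD4 was at 76.0, SETD9 at 31.1 and SETD6, which methylates the NF-kappaB subunit RELA, at 18.5. Thus 5 of the 9 lay above the protein-coding median.

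PRDM proteins, zinc finger transcription factors with a domain related to SET, were mostly low. Of these genes 2 of 8 lay above the protein-coding median, PRDM4 (274 per kilobase) and PRDM8 (221). PRDM2, a tumour suppressor also known as RIZ, was at 94.5. PRDM10 and PRDM15 were at 74.6 and 63.1, and PRDM11 was at 27.8. PRDM6, a repressor of smooth muscle genes, had the second lowest level of the 61, at 6.17 with a mean normalized count of 56.5. PRDM9 is described with the H3K4 methyltransferases, where its activity places it.

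KDM1A, the amine oxidase known as LSD1 that removes mono- and dimethyl groups from H3K4 within the CoREST complex, ranked 2 of the 61 at 996 per kilobase, at the 90.1 percentile, the highest demethylase by this measure. With the longest transcript KDM5C (581) exceeded it (531), and undivided KDM5C (3541) and KDM2A (3312) did so (3072). Its paralog KDM1B was at 75.2, lower by 13.2-fold per kilobase, 9.004-fold undivided and 8.45-fold per kilobase of coding sequence. KDM1A held 93.0% of the sum of the pair.

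Among the JmjC demethylases of H3K36 and H3K9, KDM2A and KDM2B, which bind unmethylated CpG islands, were at 448 and 196 per kilobase. KDM8, whose demethylase activity on H3K36 is disputed, was at 42.0. KDM3B and KDM3A, demethylases of mono- and dimethylated H3K9, were at 364 and 129. KDM7A, a demethylase of H3K9 and H3K27, had the lowest level of the 61 at 5.44 per kilobase, with a mean normalized count of 50.1 over 9220 bases. In the KDM4 family, which acts on trimethylated H3K9 and H3K36, KDM4B (231) and KDM4A (203) lay close together above the median and KDM4C, which is amplified in some basal-like breast tumours, at 50.4.

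KDM5 enzymes remove di- and trimethyl groups from H3K4. KDM5C, encoded on the X chromosome, was at 609 per kilobase and held 67.6% of the group. KDM5A was at 156 and KDM5B, which is high in many luminal breast tumours, at 136. KDM5C exceeded KDM5A 3.92-fold, against 2.13-fold undivided and 2.30-fold per kilobase of coding sequence. The KDM6 demethylases of H3K27 were low, KDM6B at 80.3 and KDM6A at 55.6, and both stayed under the median under all 3 lengths. JMJD6, a JmjC protein that hydroxylates lysine in splicing factors, was at 452, and its level per kilobase of the longest transcript (132.9) equalled the median of the table within rounding.

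Methyltransferases as a group lay higher than demethylases. Their median was 245 per kilobase against 146, a ratio of 1.68, and 17 of 26 (65.4%) lay above the protein-coding median against 8 of 16 (50%). The ratio was 1.26 per kilobase of coding sequence, so that its size depends on how length is counted. No replicate spread stands behind it, and no test was made. Other assignments of genes to the sides were not tried. By residue, the gap per kilobase was widest for H3K27, whereas undivided it was widest for H3K4. For H3K27, EZH1 and EZH2 summed to 1031 and KDM6A and KDM6B to 136, a ratio of 7.58 that was 7.06 per kilobase of coding sequence and 3.39 undivided. For H3K4, KMT2A to KMT2D, SETD1A and SETD1B summed to 1902 and KDM5A to KDM5C to 901, a ratio of 2.11 with a range from 1.73 to 4.08 over the same choices. These sums run over 6 methyltransferases and 3 demethylases, so that the ratio reflects the number of genes as well as their levels. The demethylase sum leaves out KDM1A and KDM1B, which remove mono- and dimethyl groups only. With them the demethylases summed to 1972 and the ratio was 0.965, or 0.881 per kilobase of coding sequence and 2.67 undivided. The direction for H3K4 thus depends on the enzymes counted, and undivided the gap was then widest for H3K27 (3.39). For H3K9, 6 methyltransferases summed to 1529 and 5 demethylases to 978, a ratio of 1.56 with a range from 1.16 to 1.66. With KDM7A, which acts on both residues, the ratios were 7.29 for H3K27 and 1.56 for H3K9. JmjC demethylases named otherwise, JMJD1C (184), PHF2 (180) and PHF8 (103) among them, were not counted. No ratio was computed with them, so how far the ratio for H3K9 depends on the enzymes counted is not known. Transcript levels say nothing of enzyme activity or of the amount of each mark.

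The enzymes act in complexes, and the levels of partners were read from lists chosen with earlier results of these data known. Levels of partners per kilobase of coding sequence were not computed. All 10 partners of the H3K4 methyltransferase complexes (COMPASS) that were listed lay above the protein-coding median, from PAGR1 (207 per kilobase) to HCFC1 (1015). WDR5, the scaffold that all of these complexes share, was at 437 and MEN1, which encodes menin, at 394. The catalytic subunits of these complexes, from 164 to 451, lay in much the same range. Of 8 partners of PRC2, 6 lay above the median. The core subunits EED and SUZ12 were at 400.0 and 252, under EZH2 at 909, and RBBP7 and RBBP4, histone chaperones shared with other complexes, at 740 and 302. Undivided, the order within both pairs turned, with 835 for EED and 1132 for SUZ12, and 1689 for RBBP7 and 2384 for RBBP4. Of the accessory subunits, PHF19 was at 893 and PHF1 at 356, whereas AEBP2 and MTF2 were at 88.3 and 75.3.

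For KDM1A, 5 of 6 listed partners have a row and 3 of them lay above the median. The deacetylases HDAC1 and HDAC2 were at 1153 and 224, but their undivided counts were much closer, at 2442 and 2177. RCOR1, which encodes CoREST and holds KDM1A on nucleosomes, was at 222, lower than KDM1A itself (996), with RCOR3 at 96.0 and PHF21A, a reader of unmethylated H3K4, at 51.7. All 6 readers of H3K9 methylation and partners of SETDB1 lay above the median. TRIM28, the corepressor that brings SETDB1 to KRAB zinc finger proteins, was at 3133, above SETDB1 (173) and every other gene named in this paragraph. The HP1 genes CBX1, CBX3 and CBX5 were at 1098, 1075 and 526, and ATF7IP, which stabilizes SETDB1, and MPHOSPH8 of the HUSH complex were at 250.3 and 183.

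**Figure D4:**
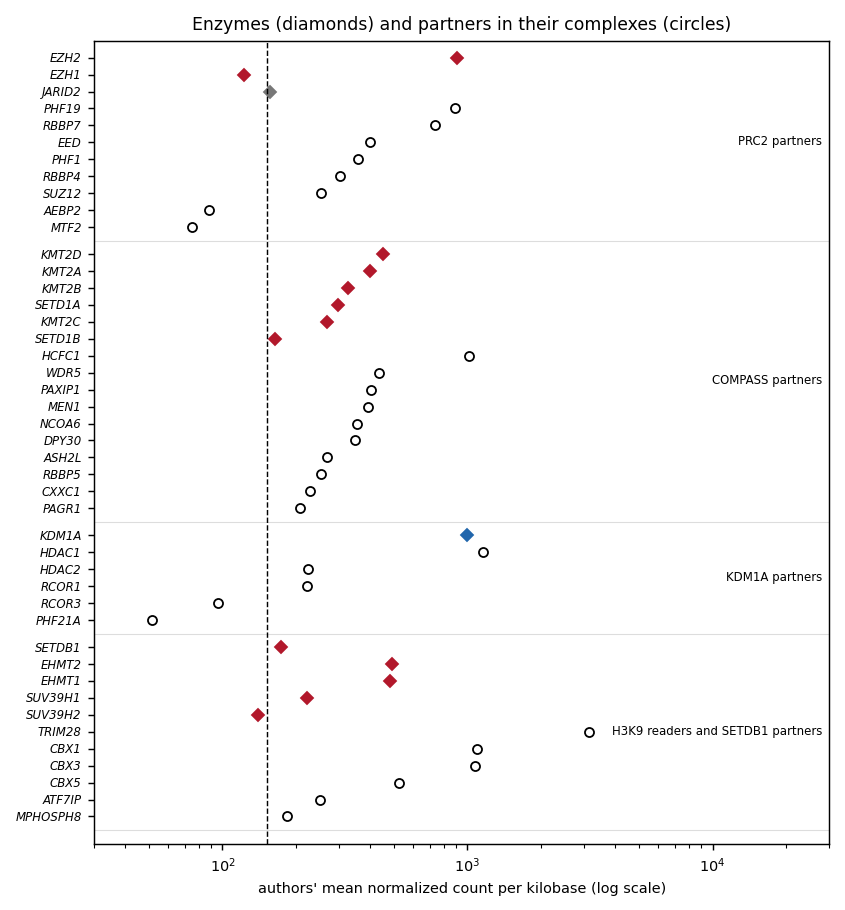
Levels of the enzymes of 4 complexes (diamonds, red for methyltransferases, blue for the demethylase, grey for JARID2) and of their listed partners (open circles), as the authors' mean normalized count per kilobase on a log axis. The dashed line is the median of protein-coding genes (152): all 10 COMPASS partners lie to its right, as do 6 of 8 PRC2 partners, 3 of 5 KDM1A partners and all 6 H3K9 readers and SETDB1 partners.

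The study mapped RBMS3 binding by cross-linking and immunoprecipitation. It reports sites mostly in 3′UTRs, with an AUA element enriched among them. Proteins bound to a 3′UTR can act on the stability of the transcript. The element was read as 7 bases: any base but C, then A or T, then ATA, then A or T, then A. It was searched on the transcript strand, with overlapping matches counted, in the 3′UTR of the representative transcript. Of the 61 genes, 51 (83.6%) hold at least 1 match, against 84.8% of the 12349 protein-coding genes with a 3′UTR, and 36 (59.0%) hold 3 or more, against 53.1%. The share in the family is thus that of protein-coding genes at large. The median 3′UTR had 1686 bases, 57.5% A+T and 4 matches, or 2.41 per kilobase, against 1378 bases, 57.9%, 3 matches and 2.43 per kilobase over protein-coding genes. The number of matches followed the length of the 3′UTR, with Spearman's rho of 0.68 over the 61 genes and 0.72 over protein-coding genes. A match describes these letters only, and no binding was measured here.

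The element can share bases with the polyadenylation signal AATAAA near the end of transcripts. Of 367 matches in the 61 genes, 126 (34.3%) shared at least 1 base with an AATAAA, against 37.4% of the matches in protein-coding genes, and in 7 of the 51 genes no other match was found. Without such matches 44 of 61 genes (72.1%) hold the element, against 61.7%. Those 7 include EZH2 and KDM5C. The study names AATAAA as the most significant motif among its RBMS3 sites, so that sharing bases with it does not set a match apart from binding.

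Stretches of 30 bases from the 3′UTR are shown for 4 genes with many matches, so that the element can be seen as it occurs. They read 5′ to 3′ on the transcript strand from GRCh38, with T for U, and the bases that belong to a match are in capitals.
PRDM11: tataTTATATATATATATATATATAAActc
PRDM6: tatTTATATAcGTATATATAcATATATAca
KDM6A: atgtatGTATATATAATATATATAgaaatc
KDM7A: ttaatgcacctTTATATATAtttttaaatg

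PRDM11 has 24 matches in a 3′UTR of 6950 bases, and the stretch, at chr11:45228261-45228290 on the plus strand, is a run of alternating T and A that alone gives 9. PRDM6 has 21 matches in 7065 bases, 4 of them at chr5:123188904-123188933 on the plus strand. KDM6A has 19 matches in only 1368 bases, with 5 at chrX:45112348-45112377 on the plus strand. KDM7A has 19 in 6348 bases, 2 of them at chr7:140087499-140087528 on the minus strand. The 4 genes all lay under the protein-coding median by level, from 5.44 per kilobase for KDM7A to 55.6 for KDM6A. Runs of several matches within a stretch count the same bases more than once, so that the number of matches overstates the number of separate places.

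Another 3 stretches, picked after the counts were seen, show the same element in genes that the levels single out.
EZH2: tttttcaactttGAATAAAgaatacttgaa
KDM1A: attttgaGAATAAAacttcATATAAAattg
KDM5C: gggttcatgttgTAATAAAagaagattgtt

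EZH2 has a single match in a 3′UTR of 263 bases, at chr7:148807389-148807418 on the minus strand, and it contains an AATAAA that ends 17 bases before the end of the transcript. KDM1A has 2 matches in 325 bases, both within chr1:23083660-23083689 on the plus strand, and the first contains an AATAAA. In KDM5C the stretch, at chrX:53192292-53192321 on the minus strand, holds 1 of 2 matches in 809 bases, and both share bases with an AATAAA.

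The 10 genes without a match were NSD2, KMT2B, SETD1A, SETDB1, KMT5C, SMYD2, SMYD5, PRDM2, KDM4A and KDM8. By the median their 3′UTRs were shorter and richer in G+C, with 855 bases and 46.5% A+T, although those of NSD2 (3283 bases) and PRDM2 (1944) were longer than the family's median. The longest annotated 3′UTR of NSD2, of another transcript with 6417 bases, holds 16, and NSD2 was the only gene of the family for which the choice of transcript decided whether the element was found. Which of the 2 ends MDA-MB-231 cells use cannot be read from a gene total. The 3′UTR is part of the length that the level was divided by, so that level and 3′UTR length are tied by construction. The 34 above the protein-coding median had a median 3′UTR of 1301 bases, 54.4% A+T and 2 matches, and 27 of them held the element. The 27 at or below it had 1944 bases, 61.4% A+T and 6 matches, and 24 held it. Per kilobase of 3′UTR the medians were 2.44 and 2.31. Protein-coding genes at large showed the same order, with 960 bases and 2 matches above their median and 1936 bases and 5 matches at or below it. Undivided, the 43 genes of the family above the median had a median 3′UTR of 1446 bases and 2 matches. The 18 at or below it had 2232 bases and 6.5 matches. Per kilobase of 3′UTR these medians were 2.23 and 2.98, the opposite order to that after division.

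**Figure D5:**
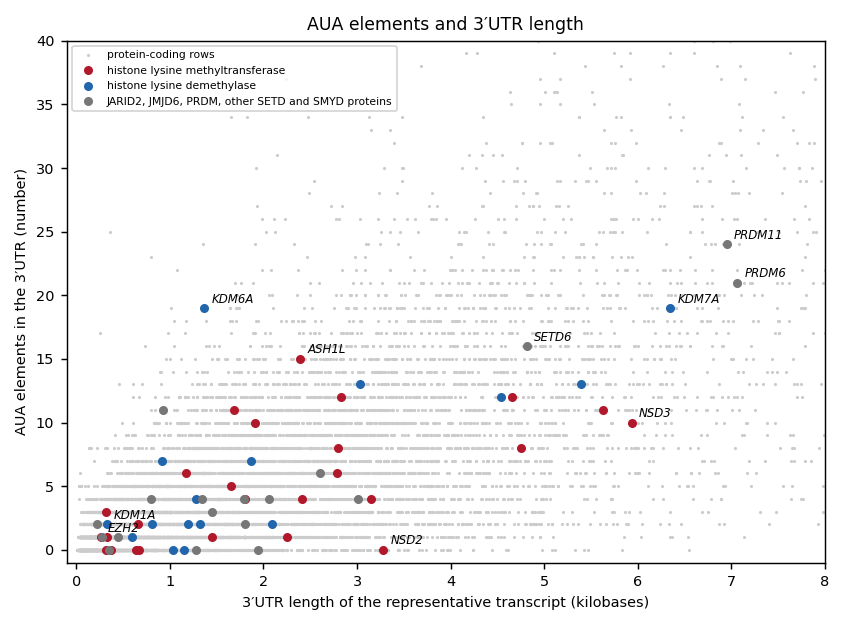
Number of AUA elements in the 3′UTR of the representative transcript against the length of that 3′UTR in kilobases, for protein-coding genes (small grey points, of which 331 lie outside the axes, which end at 8 kilobases and 40 elements) and 60 of the 61 genes of the family (large points, coloured by side). PRDM11, PRDM6, KDM6A and KDM7A have 19 to 24 elements, EZH2 and KDM1A have 1 and 2, and NSD2 has none in 3283 bases.

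Some levels rest on reads that other annotated genes could share. In 7 of the 61 genes the representative transcript shares exon bases with another gene on the same strand, with the largest parts in KDM4A (46.5% of its bases), KMT2A (22.0%) and SETD6 (14.0%). In 24 genes it does so with a gene on the opposite strand. The library kit keeps the strand, but the setting used for quantification is not given in the sources used here. Named pseudogenes exist for 5 genes, with 5 for KMT2C, 3 for KMT5A and 1 each for EZH2, KDM3A and SETD6. The levels of these genes are uncertain to the extent that reads were split with the copies.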

How the data were processed

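Total RNA of 6 libraries was sequenced as paired ends. The submitters' processing notes name Salmon, DESeq2 and hg38, without versions. The deposited table gives 1 row per gene, and its signal is a mean normalized count, the authors' mean; the lowest value is 26.7. For this comparison a legend in the study lists 2 control and 2 knockdown replicates, and which of the 6 libraries these are is not given in the sources used here. The table's other 5 columns of numbers hold the authors' comparison of knockdown with control cells (fold change, its error, statistic, p-value and adjusted p-value) and were not read. Depth is unknown. Only the symbol, the Ensembl identifier and the mean were used.

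Identifiers were joined to GENCODE release 44 on GRCh38, which holds 15829 of 15917 and lacks 88. The representative transcript was MANE Select for all 61 genes, otherwise Ensembl canonical or that with the longest coding sequence. The mean was divided by its length in kilobases. Elements were searched in 3′UTRs of at least 7 bases. Genes of the family are named with paralog pairs and listed partners, and 1 gene and 1 sequence are not reported here. Genes and lists were chosen with earlier results of these data known. Scripts passed 12 of 12 checks on simulated data. Figures were drawn with matplotlib 3.10.9, and tables were handled in Python 3.11.15 with pandas 2.3.3, SciPy 1.17.1 and numpy 2.4.6.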

Additional observations from a re-analysis of the deposited data

How the results depend on the processing

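No paired analysis was possible because only 1 mean per gene was read, with no value per library. For the same reason leaving out a replicate, another normalization and another filter on low counts were not run. Of 17 alternatives to 5 results, 7 left the result within its bounds and 10 moved it. Of 61 genes, 34 lay above the protein-coding median per kilobase, and 22 did so per kilobase of coding sequence, which turns a majority into a minority. No ratio crossed 1 under these. In alternatives added after the data were seen, KDM7A took the H3K27 ratio to 7.29 and left the H3K9 ratio at 1.56 within rounding. The H3K4 ratio of methyltransferases to demethylases, 2.11, turned to 0.965 with KDM1A and KDM1B. Above the 90th percentile lay 2 genes, and 1 with the longest transcript, 1 with ranks among all genes and 8 undivided. The ratio of methyltransferases to demethylases, 1.68, was 1.68 with the longest transcript, 1.26 with the coding sequence and 1.87 undivided. It has no error, so any shift counts as a move. EZH2 over EZH1, 7.44, was 4.39 with the longest transcript, 4.24 with the coding sequence and 4.26 undivided. The count of genes with an AUA element, 51, was 52 in the longest 3′UTR and 44 without matches on AATAAA. The length in use in these cells was not measured, which limits every level per kilobase. Depth is unknown, and the counts of PRDM9 (33.7), KDM7A (50.1) and PRDM6 (56.5) lie near the lowest of the table (26.7).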

Other observations

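Enzymes of the same kind that are named otherwise, and other histone-modifying enzymes, were read from lists written after the table was seen. MECOM, also known as PRDM3, lay at 2062 per kilobase and the 95.6 percentile, above all 61 genes of the family. A gene total does not show which of its transcripts, with or without the domain related to SET, the cells make. Undivided, its count (11264.5) lay just under that of NSD2 (11444). SETMAR lay at 39.3 per kilobase. Of 6 further JmjC demethylases, 3 lay above the protein-coding median: RIOX1 at 232, JMJD1C at 184 and PHF2 at 180. RIOX2 was at 147, PHF8 at 103 and HR, the hairless protein of skin, at 18.4.

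Of 8 arginine methyltransferases with a row, 7 lay above the median. PRMT1, which makes most asymmetric dimethylarginine, was at 3127 per kilobase, above all 61 genes. PRMT5, the main enzyme of the symmetric form, was at 1157, under NSD2 (1514). Undivided, PRMT1 (4153) also lay under NSD2 (11444), KMT2D (9311), KMT2A (6626) and KMT2C (4501). Only PRMT9 was under the median, at 40.6. Of 10 histone acetyltransferases, 7 lay above the median, with KAT5 at 533 and KAT2B at 82.1, and EP300 and CREBBP, which acetylate H3K27, at 319.8 and 315.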
